A study of Mus musculus with 8 samples.

Results

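The antioxidant, glutathione and NRF2 genes comprised 34 genes of the mouse redox defence, of 31053 genes in the count table. They were taken by symbol, as the rows whose Ensembl identifier carries that symbol in the GRCm38 annotation, and all 34 were found. RNA of visceral white adipose tissue (vWAT), which the sample names call EWAT, was sequenced from 4 wild-type (WT) and 4 KIKO mice. KIKO mice are a knock-in/knock-out model of Friedreich's ataxia that carries its changes in the germline, so that they are not limited to 1 cell type. All mice were C57BL/6 males aged 8 months without butyrate in the diet, and each library came from 1 mouse. The question was whether the expression of the redox genes differs between the genotypes in this tissue.

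NRF2, encoded by *Nfe2l2*, is a transcription factor that the adaptor KEAP1 marks for degradation in unstressed cells. When KEAP1 is oxidised, NRF2 persists, pairs with small MAF proteins and binds antioxidant response elements of genes for glutathione synthesis, thioredoxin reduction and detoxification. Superoxide dismutases turn superoxide into hydrogen peroxide, which catalase removes, as do glutathione peroxidases and peroxiredoxins with the reducing power of glutathione or thioredoxin. In white fat these enzymes handle peroxides formed by mitochondria and by the oxidation of stored lipid.

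The antioxidant response element has the core TGACNNNGC, in which N is any base. RefSeq promoter windows of GRCm38.p6, from 250 bases before to 50 bases after the annotated transcript start, were searched for this core on both strands. A window existed for 29 of the 34 members, and not for *Gclc*, *Gsr*, *Prdx6*, *Sod3* and *Gsta4*. The core occurred in a window of 7 of the 29 members (24.1%), and in 14.0% of the 27025 genes with a window. The 7 matches are shown because they place NRF2's own gene beside known NRF2 targets, *Srxn1* among them, and beside *Sod1* and *Mgst1*. The values of these genes are given further on. Each is written 5′ to 3′ on the minus strand with the core in capitals.
Nfe2l2: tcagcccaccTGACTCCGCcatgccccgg
Srxn1: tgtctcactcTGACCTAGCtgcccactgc
Gclm: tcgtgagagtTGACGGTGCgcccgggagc
Prdx1: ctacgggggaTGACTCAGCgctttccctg
Mgst1: ccccgcctccTGACCGTGCcaagccccgc
Txnrd1: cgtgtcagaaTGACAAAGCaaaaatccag
Sod1: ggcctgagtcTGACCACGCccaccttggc

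The stretches lie at chr2:75704885-75704913 for *Nfe2l2*, chr2:152105542-152105570 for *Srxn1*, chr3:122245413-122245441 for *Gclm* and chr4:116685456-116685484 for *Prdx1*. Those of *Mgst1*, *Txnrd1* and *Sod1* lie at chr6:138140461-138140489, chr10:82859104-82859132 and chr16:90220696-90220724. Relative to the RefSeq start of its window, the match of *Srxn1* begins after the start and the other 6 before it. The stretches of *Mgst1* and *Txnrd1* lie inside the gene spans given further on, which come from GENCODE and begin at other starts. A match describes the letters of the window and does not show binding. Of the tested members with a match, 4 of 7 had a log2 fold change above 0 (median 0.08), and of those with a window and no match 16 of 20 (median 0.20).

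Total counts ranged from 2602189 to 3478539 per library, and 11080 genes passed edgeR's filter on low counts. Levels are CPM, the counts relative to the library total, scaled by TMM, edgeR's library scaling, and a fold change above 0 on the log2 scale means a higher level in KIKO mice. The adipocyte genes *Adipoq* (mean ± SD over 4 mice of 4370 ± 714 CPM in WT and 6340 ± 497 CPM in KIKO) and *Fabp4* (8860 ± 1330 and 9210 ± 1760 CPM) were abundant in both groups. For *Adipoq* all KIKO mice lay above all WT mice, as in 3.89% of all tested genes. Its log2 fold change was 0.54 (adjusted p = 0.102 from edgeR and 0.00379 from DESeq2). The paper reports the opposite direction, a lower *Adipoq* mRNA in KIKO vWAT by quantitative PCR. On the first principal component, KIKO mice scored 4.04 to 24, WT mouse 3 scored 12.6 and the remaining WT mice -38.6 to -8.43. WT mouse 3 was also the WT mouse with the highest level in 17 of the 32 tested members (53.1%), against 29.5% of all tested genes.

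None of the 32 tested members passed the test for genotype, at an adjusted p under 0.05 from edgeR's quasi-likelihood test with Benjamini-Hochberg adjustment over all tested genes. Over all tested genes 0.677% passed (0.28% higher and 0.397% lower in KIKO mice), so a list of 32 would hold few such genes at the same rate. At an unadjusted p under 0.05, 9 members (28.1%) had a higher level in KIKO mice and 0 a lower one, where the shares over all tested genes were 7.13% and 9.06%. These 9 were *Gpx1*, *Srxn1*, *Sod1*, *Txn1*, *Prdx5*, *Mgst1*, *Gpx3*, *Gpx4* and *Prdx3*. With other tools, DESeq2 called 2 members as higher, *Gpx1* and *Sod1*, where it called 3.93% of the 6616 genes with an adjusted p (2.03% higher and 1.9% lower), and limma-voom and limma-trend called 0. The log2 fold change was above 0 in 22 of the 32 members (68.8%), compared with 49% of all tested genes, and its median was 0.13 compared with -0.01. The estimates ran from -0.25 for *Txnrd1* to 0.77 for *Gstp1*, with standard errors of 0.12 to 0.42. The 95% interval lay within 1.5-fold in both directions in 17 members, whereas in 13 members its upper limit reached 1.5-fold or more.

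**Figure D1:**
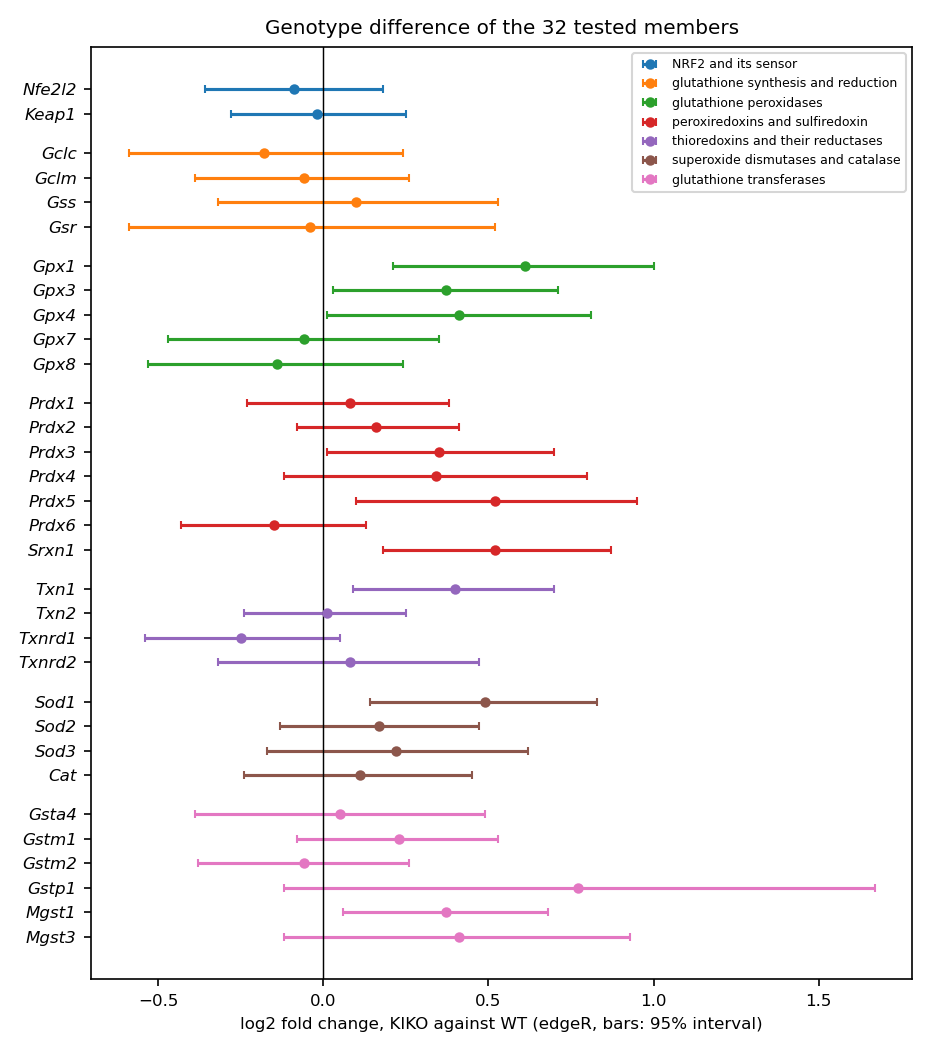
Log2 fold change (KIKO against WT, horizontal axis) of the 32 tested antioxidant, glutathione and NRF2 genes, in rows by role; points are edgeR estimates and bars 95% intervals. The intervals of 9 genes lie above 0, most of them peroxidases, peroxiredoxins and *Sod1*, while those of *Nfe2l2*, *Keap1* and the genes of glutathione synthesis and reduction include 0.

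*Nfe2l2* (ENSMUSG00000015839, chromosome 2, 75675513 to 75704641) encodes NRF2 itself. Its level was 131, 115, 91.4 and 106 CPM in WT mice 1 to 4 and 108, 104, 99.5 and 106 CPM in KIKO mice 1 to 4. The KIKO values lay inside the range of the WT values, and the log2 fold change was -0.09 (95% interval -0.36 to 0.18, adjusted p = 0.773 from edgeR). *Keap1* (ENSMUSG00000003308, chromosome 9, 21229730 to 21239361), the NRF2 sensor, had 112, 124, 153 and 130 CPM in WT and 143, 125, 124 and 122 CPM in KIKO mice. Here too all KIKO values lay inside the WT range (log2 fold change -0.02, 95% interval -0.28 to 0.25, adjusted p = 0.963). The estimate of *Keap1* lay at 0.01 under limma-trend and at 0.02 after the length correction described further on, and 8.33% of its 75-base windows belong also to an antisense gene.

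*Nqo1*, the quinone reductase that is often read as a reporter of NRF2 activity, was too low to be tested. It had 13, 9, 5 and 4 counts in WT mice 1 to 4 and 3, 3, 9 and 6 counts in KIKO mice, or 1.34 to 4.12 and 0.99 to 2.92 CPM. The highest WT value came from mouse 1 and the groups overlapped. *Slc7a11*, the cystine transporter that supplies cysteine for glutathione, had 0, 0, 1 and 0 counts in WT and 1, 0, 2 and 1 counts in KIKO mice. Both groups were within the 3 counts per library below which a level is not told from 0, so no difference was detectable at this depth.

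Among the genes of glutathione synthesis and reduction 0 of 4 tested members passed, 1 estimate was above 0 and 3 were below it, and their median was -0.05. *Gclc*, the catalytic subunit of glutamate-cysteine ligase that sets the rate of glutathione synthesis, had 18.7 to 28.2 CPM in WT and 17.2 to 29.2 CPM in KIKO mice (log2 fold change -0.18, 95% interval -0.59 to 0.24). Its modifier subunit *Gclm* had 33.3 to 41.2 and 27.5 to 40.3 CPM (-0.06, -0.39 to 0.26). *Gss*, which joins glycine to the dipeptide, had 10.8 to 16.1 and 11.7 to 16.4 CPM (0.10, -0.32 to 0.53). *Gsr*, which reduces oxidised glutathione, had 6.69 to 13.6 and 8.91 to 16.2 CPM (-0.04, -0.59 to 0.52). The summed level of the 5 genes of this role was 83 to 86.9 CPM in WT and 75.5 to 90.3 CPM in KIKO mice, so it varied more among KIKO mice than among WT mice.

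Most glutathione peroxidases reduce peroxides with glutathione. The 5 members differed among themselves, and 3 had an unadjusted p under 0.05 with a higher level in KIKO mice. *Gpx7* and *Gpx8*, which act in the endoplasmic reticulum, had estimates below 0. *Gpx1* (ENSMUSG00000063856, chromosome 9, 108338903 to 108340343) encodes the main cytosolic and mitochondrial enzyme. Its level was 1640, 912, 1120 and 1110 CPM in WT mice 1 to 4 and 2330, 1560, 1530 and 1850 CPM in KIKO mice 1 to 4. WT mouse 1 reached into the KIKO range, and the other 3 WT mice lay below every KIKO mouse. The WT mean was 1190 ± 312 CPM and the KIKO mean 1820 ± 372 CPM (SD, n = 4 mice), which gives an estimated log2 fold change of 0.61 (standard error 0.19, 95% interval 0.21 to 1.0) with the smallest adjusted p of the members (0.126 from edgeR). It passed without WT mouse 1 (log2 fold change 0.80, adjusted p = 0.0421, where 0.427% of all tested genes passed), with no filter on low counts (adjusted p = 0.0239) and in DESeq2 (adjusted p = 0.0312). With no filter 2.11% of all genes passed (0.807% higher, 1.3% lower).

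*Gpx3* (ENSMUSG00000018339, chromosome 11, 54902453 to 54910377), the secreted plasma enzyme that fat also makes, had 1980, 1660, 1270 and 1340 CPM in WT and 2370, 1810, 2000 and 1880 CPM in KIKO mice. Again WT mouse 1 lay within the KIKO range and the other 3 WT mice below it. The log2 fold change was 0.37 (standard error 0.16, adjusted p = 0.265 from edgeR). *Gpx4* (ENSMUSG00000075706, chromosome 10, 80047166 to 80056439), which reduces lipid hydroperoxides in membranes, had 35.8, 32.1, 56.9 and 57.9 CPM in WT and 59.4, 54.0, 72.6 and 55.7 CPM in KIKO mice. WT mice 1 and 2 were low, while the levels of WT mice 3 and 4 were inside the KIKO range (log2 fold change 0.41, standard error 0.19, adjusted p = 0.300). Of the 75-base windows of the *Gpx4* transcript 55.3% also occur in transcripts of other genes, a pseudogene copy among them, so its count is uncertain. *Gpx7* had 14.3 to 19.7 CPM in WT and 13.2 to 22 CPM in KIKO mice (-0.06, 95% interval -0.47 to 0.35), and *Gpx8* 28.2 to 38.5 and 22.4 to 37.2 CPM (-0.14, -0.53 to 0.24).

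**Figure D2:**
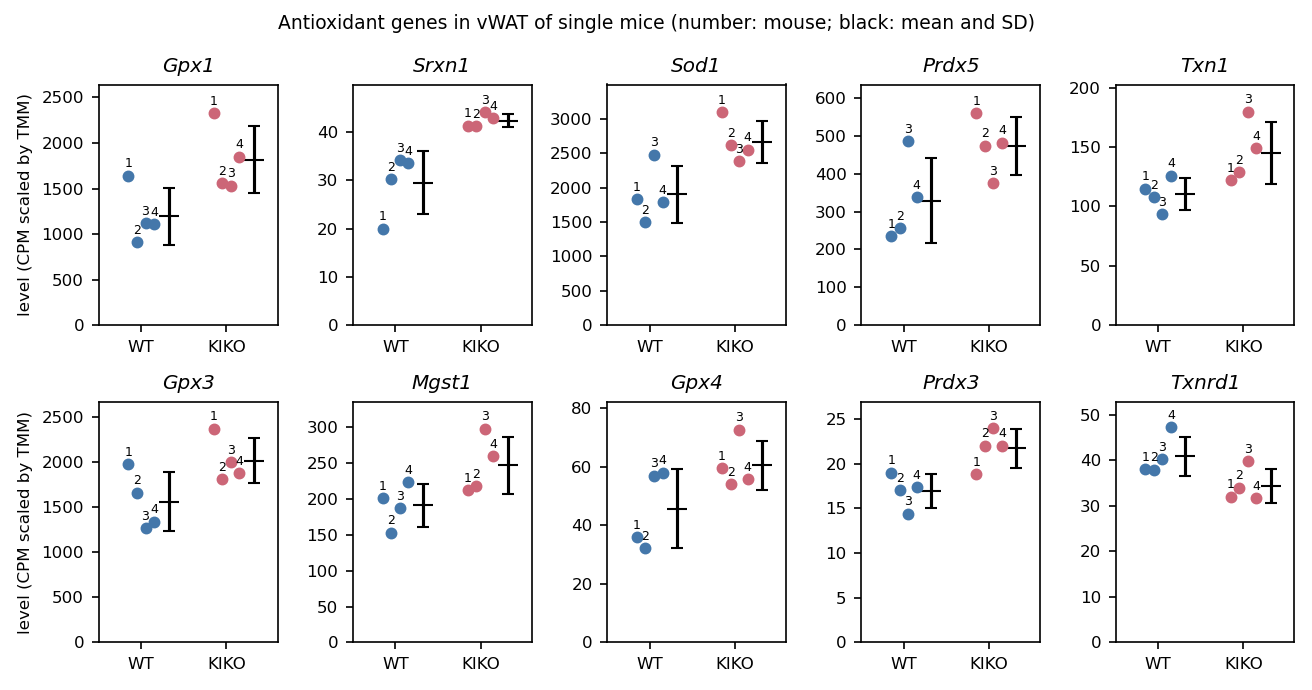
Level (CPM scaled by TMM, vertical axes from 0) of the 9 members with the smallest p and of *Txnrd1* in each mouse, with WT in blue and KIKO in red; numbers give the mouse and black bars the mean and SD. *Srxn1* is the panel in which all 4 KIKO mice (41.2 to 44.1) lie above all 4 WT mice (20 to 34.1); in *Gpx1* and *Gpx3* WT mouse 1 reaches the KIKO range, and in *Sod1* and *Prdx5* WT mouse 3.

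Most peroxiredoxins reduce hydrogen peroxide with thioredoxin, and sulfiredoxin, encoded by *Srxn1*, repairs peroxiredoxins that were oxidised too far. Of these 7 genes 0 passed, 6 had estimates above 0 and 3 an unadjusted p under 0.05. *Srxn1* (ENSMUSG00000032802, chromosome 2, 152105516 to 152111376) had 20, 30.3, 34.1 and 33.5 CPM in WT mice 1 to 4 and 41.3, 41.2, 44.1 and 42.8 CPM in KIKO mice 1 to 4. It was the 1 member of 32 whose groups did not overlap, where 8.45% of all tested genes were so separated (3.89% with KIKO mice above and 4.56% with KIKO mice below). The KIKO mice lay close together and the WT mice were spread by mouse 1. The WT mean was 29.5 ± 6.55 CPM and the KIKO mean 42.3 ± 1.38 CPM (log2 fold change 0.52, standard error 0.16, 95% interval 0.18 to 0.87, adjusted p = 0.133 from edgeR). With counts divided by the authors' size factors the groups of *Prdx3* did not overlap either.

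*Prdx5* (ENSMUSG00000024953, chromosome 19, 6906697 to 6910106), which occurs in mitochondria, peroxisomes and cytosol, had 236, 257, 486 and 338 CPM in WT and 561, 474, 376 and 482 CPM in KIKO mice. WT mouse 3 exceeded 3 of the 4 KIKO mice, and the other WT mice lay below all of them. The log2 fold change was 0.52 (standard error 0.20, adjusted p = 0.208 from edgeR), and 28.2% of the transcript's 75-base windows also belong to the overlapping gene *Trmt112* on the other strand. *Prdx3* (ENSMUSG00000024997, chromosome 19, 60864051 to 60874556), the peroxiredoxin of the mitochondrial matrix, had 19.0, 17.0, 14.4 and 17.4 CPM in WT and 18.8, 22, 24.0 and 22 CPM in KIKO mice. WT mouse 1 and KIKO mouse 1 were nearly level, and otherwise the groups were apart (log2 fold change 0.35, standard error 0.16, adjusted p = 0.301).

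The other 4 peroxiredoxins overlapped between the genotypes. The most abundant of them, *Prdx6*, whose enzyme also acts on phospholipid peroxides, had 536 to 750 CPM in WT and 537 to 622 CPM in KIKO mice (log2 fold change -0.15, 95% interval -0.43 to 0.13). Cytosolic *Prdx1*, a known NRF2 target, had 313 to 439 and 327 to 427 CPM (0.08, -0.23 to 0.38), with 5.63% of its 75-base windows also found in other genes. Cytosolic *Prdx2* had 154 to 189 and 178 to 202 CPM (0.16, -0.08 to 0.41), with 17.4% of its windows shared. *Prdx4*, the peroxiredoxin of the endoplasmic reticulum, had 12.1 to 27.4 and 21.7 to 26.6 CPM (0.34, -0.12 to 0.80), where the WT range enclosed the KIKO range.

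The thioredoxin genes showed estimates on both sides of 0. *Txn1* (ENSMUSG00000028367, chromosome 4, 57943373 to 57956411), the cytosolic thioredoxin, had 115, 108, 93.4 and 126 CPM in WT and 122, 129, 180 and 149 CPM in KIKO mice. WT mouse 4 and KIKO mouse 1 overlapped, and KIKO mouse 3 was the highest (log2 fold change 0.40, standard error 0.14, adjusted p = 0.183 from edgeR). *Txnrd1* (ENSMUSG00000020250, chromosome 10, 82833951 to 82897712), the cytosolic thioredoxin reductase and a known NRF2 target, had 38.0, 37.9, 40.2 and 47.2 CPM in WT and 32, 34, 39.8 and 31.6 CPM in KIKO mice. It had the lowest estimate of all members, with KIKO mouse 3 inside the WT range (log2 fold change -0.25, standard error 0.14, 95% interval -0.54 to 0.05, adjusted p = 0.404). The mitochondrial pair had smaller estimates: *Txn2* had 145 to 178 CPM in WT and 149 to 172 CPM in KIKO mice (0.01, 95% interval -0.24 to 0.25). *Txnrd2* had 14.7 to 25.7 and 20.1 to 21.2 CPM (0.08, -0.32 to 0.47), and its KIKO mice lay within the spread of the WT mice.

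All 4 genes of superoxide dismutases and catalase had estimates above 0, and none passed. *Sod1* (ENSMUSG00000022982, chromosome 16, 90220754 to 90226329) encodes the cytosolic copper-zinc enzyme. It had 1830, 1500, 2480 and 1790 CPM in WT mice 1 to 4 and 3100, 2620, 2380 and 2550 CPM in KIKO mice 1 to 4. WT mouse 3 lay just above KIKO mouse 3, and the other 3 WT mice lay below every KIKO mouse. The WT mean was 1900 ± 415 CPM and the KIKO mean 2660 ± 306 CPM, a log2 fold change of 0.49 (standard error 0.16, 95% interval 0.14 to 0.83, adjusted p = 0.157 from edgeR, and 0.0488 from DESeq2). A pseudogene holds 12.2% of the 75-base windows of *Sod1*, so part of its count may not be its own. *Sod2*, the manganese enzyme of the mitochondrial matrix, had 96.7 to 144 and 116 to 143 CPM (log2 fold change 0.17, 95% interval -0.13 to 0.47). The extracellular enzyme *Sod3* had 169 to 341 CPM in WT and 244 to 288 CPM in KIKO mice (0.22, -0.17 to 0.62), with WT mouse 3 above every KIKO mouse. *Cat*, the peroxisomal catalase, had 348 to 594 and 464 to 637 CPM (0.11, -0.24 to 0.45).

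The glutathione transferases couple glutathione to reactive compounds, and 5 of 6 had estimates above 0. *Mgst1* (ENSMUSG00000008540, chromosome 6, 138140316 to 138156755), a membrane enzyme that also reduces lipid peroxides, had 201, 153, 187 and 224 CPM in WT and 212, 218, 298 and 260 CPM in KIKO mice. WT mouse 4 lay above KIKO mice 1 and 2 (log2 fold change 0.37, standard error 0.15, adjusted p = 0.229 from edgeR). The largest and least precise estimate belonged to *Gstp1*, with 1.59, 2.42, 2.68 and 5.36 CPM in WT and 2.31, 4.80, 8.10 and 5.27 CPM in KIKO mice (0.77, standard error 0.42, adjusted p = 0.386). Of its 75-base windows 57.7% also occur in *Gstp2* or a pseudogene, so that its count is uncertain. *Mgst3* had 21.9 to 34.2 and 22.4 to 56.4 CPM (0.41, 95% interval -0.12 to 0.93), with KIKO mouse 3 far above the rest. *Gstm1* had 438 to 705 and 614 to 711 CPM (0.23, -0.08 to 0.53), with 14.8% of its windows shared with related genes. *Gstm2* had 272 to 397 and 240 to 354 CPM (-0.06, -0.38 to 0.26), and *Gsta4*, which acts on the lipid peroxidation product 4-hydroxynonenal, 34.2 to 49.1 and 25.4 to 56.3 CPM (0.05, -0.39 to 0.49).

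Per kilobase of transcript, the most abundant members over all mice were *Sod1* (3560 CPM per kb), *Gpx1* (1410) and *Gpx3* (1120), followed by *Gstm1* (472), *Prdx5* (318) and *Gstm2* (301). This scale assumes reads along the whole transcript, and the kit named in the labels differs from that in the methods. The tested members together made up 7690 to 10000 CPM in WT and 10400 to 12600 CPM in KIKO mice, and these ranges did not overlap. Of that sum *Sod1*, *Gpx1* and *Gpx3*, picked after their levels were seen, gave 48.6% to 58.1% among WT and 54.9% to 61.9% among KIKO mice. Their own sum was 4080 to 5450 CPM in WT and 5920 to 7800 CPM in KIKO mice. The other 29 tested members summed to 3610 to 5140 CPM in WT and 4480 to 4930 CPM in KIKO mice, so that without these 3 genes the groups overlapped.

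The fold changes of the members moved with transcript length. The longer a transcript was, the lower its log2 fold change tended to be, at a Spearman's rho of -0.277 across the tested genes and -0.473 across the 32 members, which is a description across genes that share libraries. Members were short, with a median length of 1603 nt compared with 3187 nt for all tested genes, and 26 of the 32 were at or under that median. Of these 26, 20 had a log2 fold change above 0 (median 0.19), where 59.3% of all genes of this class did (median 0.06). All 9 members with an unadjusted p under 0.05 were among them (34.6%), compared with 10.6% of that class with KIKO mice higher. Of the 6 longer members 2 were above 0 (median -0.04), and of all longer genes 38.8% (median -0.08). With length and GC content corrected in each library, the median of the members was 0.09, 4 members had an unadjusted p under 0.05 with a higher level in KIKO mice (7.03% of all genes did), and none passed (0.307% of all genes did). The estimates of *Gpx1*, *Sod1*, *Prdx5* and *Srxn1* were then 0.49, 0.32, 0.46 and 0.51, so *Srxn1*, with a transcript of 2812 nt, moved least.

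**Figure D3:**
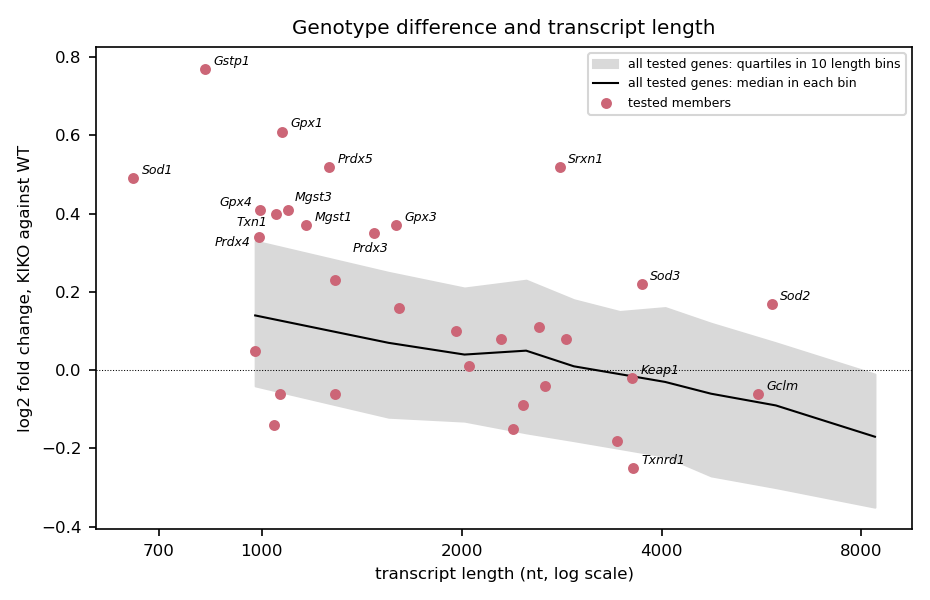
Log2 fold change (KIKO against WT, vertical axis) against transcript length (nt, log scale); red points are the 32 tested members, the black line and grey band the median and quartiles of all tested genes in 10 bins of length. Members with the largest estimates are short. The longest of them is *Srxn1* at 2812 nt and 0.52, still under the median of 3187 nt for all tested genes.

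A few calls turned on single mice. Without WT mouse 3, *Prdx5* (log2 fold change 0.77, adjusted p = 0.0156 from edgeR), *Sod1* (0.64, adjusted p = 0.0197) and *Srxn1* (0.60, adjusted p = 0.0489) passed, when 5.81% of all tested genes passed (2.53% higher and 3.28% lower). The next gene was *Sod3* (0.48, adjusted p = 0.0516). *Gpx1* did not pass without that mouse (0.58, adjusted p = 0.0959), and its call without WT mouse 1 was not shared by *Sod1* (0.47, adjusted p = 0.254) or *Srxn1* (0.38, adjusted p = 0.265). Leaving out any of the other 6 mice gave 0 members that passed. Within each library, the deviation of a gene from its average over the 8 mice was compared with its length, and across genes Spearman's rho was 0.26, 0.245, -0.107 and 0.111 in WT mice 1 to 4 and -0.162, -0.157, -0.0786 and -0.212 in KIKO mice 1 to 4. WT mouse 3 was thus the WT mouse on the side of the KIKO mice, and the other 3 WT mice were all above 0. The part of this difference in the calls without WT mouse 3 was not tested.

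**Figure D4:**
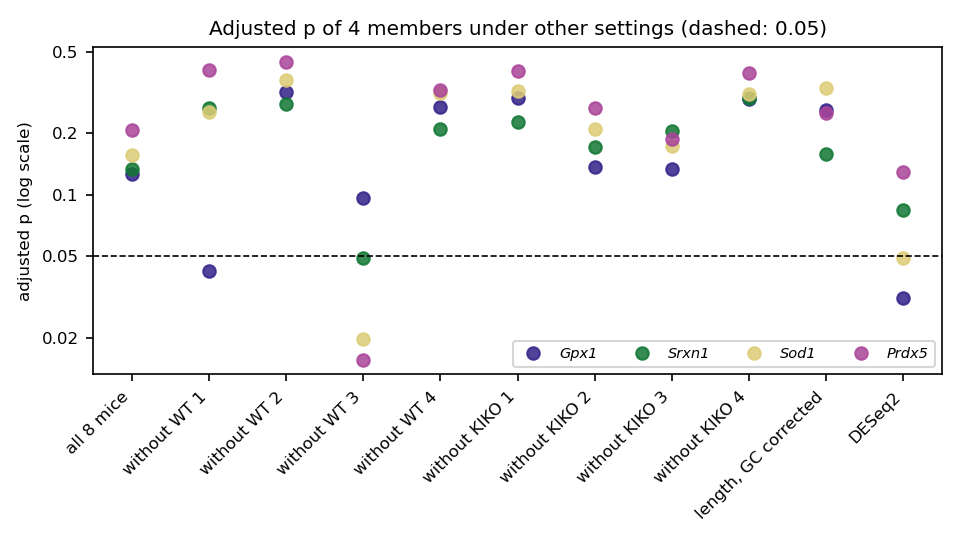
Adjusted p (log scale, vertical axis) of *Gpx1*, *Srxn1*, *Sod1* and *Prdx5* with all 8 mice, without each mouse, after the length and GC correction and in DESeq2; the dashed line marks 0.05. Points fall under the line without WT mouse 1 (*Gpx1*, 0.0421), without WT mouse 3 (the other 3 genes) and in DESeq2 (*Gpx1*, 0.0312, and *Sod1*, 0.0488).

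Other redox genes were taken from 5 lists of 98 genes, of which 85 were tested. Of these, 2 rose and 0 fell in KIKO mice (2.35% higher, compared with 0.28% of all tested genes), and their median log2 fold change was 0.03. Both were selenoproteins from the list of thiol and redox repair genes (29 tested, 2 higher). *Selenop* (ENSMUSG00000064373, chromosome 15, 3268547 to 3280508), the secreted carrier of selenium that glutathione peroxidases and thioredoxin reductases need, had 482, 433, 451 and 456 CPM in WT and 596, 701, 732 and 708 CPM in KIKO mice. All KIKO mice lay above all WT mice, and the level rose from 456 ± 20.1 to 684 ± 60.2 CPM (log2 fold change 0.59, standard error 0.12, adjusted p = 0.0415 from edgeR). *Selenom* (ENSMUSG00000075702, chromosome 11, 3514684 to 3517351), a redox protein of the endoplasmic reticulum, had 35.5, 31.8, 32.5 and 28.5 CPM in WT and 47.9, 53.6, 48.3 and 55.9 CPM in KIKO mice. Its groups did not overlap either, and it rose from 32.1 ± 2.89 to 51.4 ± 3.99 CPM (log2 fold change 0.68, standard error 0.13, adjusted p = 0.0363). Neither passed with length and GC content corrected (adjusted p = 0.0528 for *Selenop* and 0.0918 for *Selenom*), nor without any 1 mouse other than WT mouse 1 or WT mouse 3 (estimates 0.56 to 0.65 and 0.63 to 0.73 over the 8 fits).

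None of the genes of the other 4 lists passed in edgeR with all 8 mice and the filter on low counts, and other settings called some of them. DESeq2 called *Gstk1* as higher (adjusted p = 0.0488) and *Txnip* as lower (adjusted p = 0.0287). Its shares over all genes with an adjusted p were 2.03% higher and 1.9% lower. With no filter edgeR called *Txnip* (adjusted p = 0.00754) and *Trib3*, named here after its values were seen (adjusted p = 0.00799), as lower. In that fit 1.3% of all genes passed as lower. *Trib3* had 11.1, 46.0, 6.36 and 22.4 CPM in WT and 6.93, 7.19, 8.42 and 12.0 CPM in KIKO mice. Its groups overlapped and WT mouse 2 was far above the rest (edgeR adjusted p = 0.172 with the filter). With 1 mouse left out its log2 fold change ran from -1.60 to -0.60. Without WT mouse 3, 7 genes of all the wider lists passed as higher, *Gstk1* (adjusted p = 0.0191) and *Mgst2* (adjusted p = 0.035) among them. As lower 3 passed, *Txnip* among them (adjusted p = 0.0234). Over all genes tested in that fit 2.53% passed as higher and 3.28% as lower. Of 9 tested NRF2 partners and regulators 3 had estimates above 0, and the smallest adjusted p belonged to *Mafg*, a small MAF partner of NRF2 (72.3 ± 4.63 and 58.3 ± 6.75 CPM, log2 fold change -0.31, standard error 0.13, adjusted p = 0.239 from edgeR), and to *Bach1*, the repressor that competes with NRF2 for its sites (33.8 ± 12.3 and 24.5 ± 2.91 CPM, -0.46, standard error 0.21, adjusted p = 0.302). In *Bach1* WT mouse 1 was the highest at 51.0 CPM, and WT mice 3 and 4 (22.8 and 27.8 CPM) lay inside the KIKO range. Without WT mouse 1 its log2 fold change was -0.19 (edgeR adjusted p = 0.705). Of 18 genes listed as further NRF2 targets 7 were above 0. The list was not sorted by the direction in which NRF2 acts on each gene, so these signs do not measure NRF2 activity. *Txnip*, which binds and inhibits thioredoxin, had 873, 749, 549 and 883 CPM in WT and 268, 554, 544 and 491 CPM in KIKO mice, with WT mouse 3 inside the KIKO range (-0.72, standard error 0.21, adjusted p = 0.110). *Osgin1* had 5.07, 3.63, 3.68 and 5.02 CPM in WT and 10.9, 5.59, 5.83 and 12.3 CPM in KIKO mice, without overlap (1.01, standard error 0.32, adjusted p = 0.136). Over all tested genes 3.89% were separated with KIKO mice above.

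Of 14 tested further glutathione genes 8 were above 0. *Slc25a40*, a mitochondrial carrier of the family that imports glutathione, had 21.7 ± 2.25 and 13.9 ± 2.37 CPM (log2 fold change -0.66, standard error 0.18, adjusted p = 0.0959 from edgeR). The gamma-glutamyltransferase *Ggt5* had 48.7 ± 1.37 and 36.1 ± 3.10 CPM (-0.43, standard error 0.13, adjusted p = 0.110), and in both genes all KIKO mice lay below all WT mice. Over all tested genes 4.56% were separated in that direction. Among the further glutathione transferases 13 of 15 were above 0, with a median of 0.29. Of all tested genes 49% were above 0, and of those at or under the median transcript length 59.3%. *Gstk1*, the transferase of mitochondria and peroxisomes, had 49.8 ± 7.85 and 69.7 ± 5.88 CPM (0.49, standard error 0.14, adjusted p = 0.104), and microsomal *Mgst2* 19.2 ± 3.23 and 28.2 ± 2.78 CPM (0.56, standard error 0.16, adjusted p = 0.113), both without overlap. In 3.89% of all tested genes KIKO mice lay above WT mice in this way. With length and GC content corrected, the estimates of *Gstk1* and *Mgst2* were 0.36 and 0.39.

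**Figure D5:**
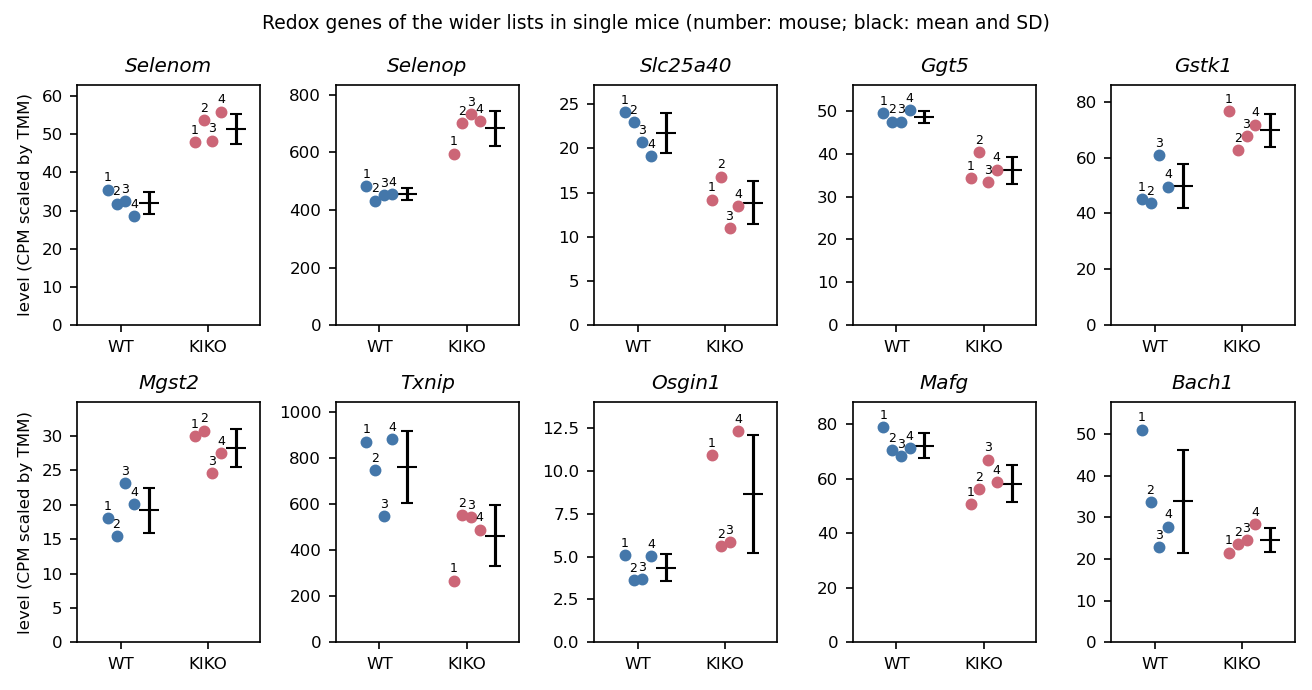
Level (CPM scaled by TMM, vertical axes from 0) of 10 genes of the wider redox lists in each mouse, with WT in blue and KIKO in red; numbers give the mouse and black bars the mean and SD. The KIKO mice lie above the WT mice without overlap in *Selenom* (47.9 to 55.9 and 28.5 to 35.5) and *Selenop* (596 to 732 and 433 to 482), the pair that passed.

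vWAT holds many cell types, and in bulk RNA fewer cells of a type and less RNA per cell cannot be told apart. The marker calls are from edgeR with all 8 mice unless DESeq2 is named. No adipocyte marker passed (0 of 10, 7 above 0, median log2 fold change 0.15). Their sum was 38100 to 44900 CPM in WT and 49400 to 66100 CPM in KIKO mice, but without *Cfd*, the most abundant, it was 21200 to 26500 and 23700 to 28300 CPM and overlapped. Of the macrophage markers 1 of 10 passed, *Lyz2*, as higher (9 above 0, median 0.30). Their sum was 1660 to 1870 and 1990 to 2480 CPM, and without *Lyz2* 1290 to 1460 and 1410 to 1780 CPM, which overlapped. Of the fibroblast and progenitor markers 0 of 7 passed and 2 were above 0 (median -0.02). Their sum of 2980 to 3380 and 3600 to 4210 CPM was set by *Dcn*, without which it was 982 to 1130 and 959 to 1170 CPM. Endothelial markers summed to 579 to 774 and 370 to 612 CPM (1 of 8 lower, 0 above 0), and mural markers to 524 to 572 and 394 to 536 CPM (0 of 6 passed, 0 above 0). Mesothelial markers summed to 238 to 346 and 259 to 497 CPM (2 of 6 higher, 5 above 0). Mast cell markers summed to 75 to 135 and 85.5 to 124 CPM and did not move together. Of 5 tested, 2 passed as higher and the other 3 had estimates below 0 (median -0.34). Red blood cell markers (0 of 5 passed) summed to 4650 to 9260 and 4950 to 6690 CPM, B and T cell markers (0 of 2 tested) to 8.37 to 16.2 and 6.48 to 27.2 CPM, and neutrophil markers (0 of 1 tested) to 9.83 to 25.1 and 11.9 to 21.4 CPM, with *Ly6g* at 0 in every library. Of 8 epididymis and testis markers 6 were at 0 in every library and none was tested. DESeq2 called further markers as higher: *Dcn* (adjusted p = 0.00268), *Adipoq* (0.00379), *Cfd* (0.00838), *Cd68* (0.0287) and *Lrrn4* (0.0338). As lower it also called *Hba-a1* (adjusted p = 0.0235), *Hba-a2* (0.0353) and *Myh11* (0.0473). Of all genes with an adjusted p in DESeq2, 2.03% were called higher and 1.9% lower. Mitochondrially encoded genes took between 6.91% and 10.7% of the counts of WT mice and between 9.93% and 10.6% of those of KIKO mice. The part of these differences in the levels of *Gpx1*, *Sod1* and the other members was not tested.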

How the data were processed

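vWAT RNA of 4 WT and 4 KIKO mice (1 library per mouse, which counts as the replicate) was analysed from 2 tables. The authors deposited raw counts per Ensembl gene, made with Trimmomatic, HISAT2 on GRCm38 and, per the paper's methods, StringTie. A second table holds log2 values that the authors made with DESeq2, checked here to be log2 of the count divided by a size factor per library, plus 1. Strand handling and annotation release are not given in the sources used here, and the kit and instrument in the labels differ from those in the methods. The 31053 genes were matched to GENCODE symbols and lengths of the same build. Columns of no sample numbered 0.

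Counts were tested in R 4.3.3 with edgeR 4.0.16 (TMM, filterByExpr by genotype, quasi-likelihood test, Benjamini-Hochberg over 11080 genes, called under 0.05). Alternatives were other scalings and filters, DESeq2 1.42.0 with default settings, limma 3.58.1 (voom, and trend with pseudocounts of 1 and 8), a replicate block, each mouse left out, a fold threshold of 1.5, and a length and GC trend per library (mgcv 1.9.3) as offset. Standard errors were back-calculated from the fold change and the F statistic. Steps were tested on simulated data. All 34 members are named, as are the genes of the 5 wider lists that passed, or up to 2 per list with the smallest adjusted p. *Nnt* was left out of them, since 2 Ensembl identifiers share its symbol. The 11 marker lists are given by counts and sums. The members, lists and rules were chosen with earlier results of these data known, so no list is independent evidence. Totals of 2602189 to 3478539 counts limit genes under about 10 counts. Butyrate-fed mice were not analysed here. The check of the targeted gene is not reported here.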

Additional observations from a re-analysis of the deposited data

Results flagged for a closer look

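In 2 of the 64 groups of 4 mice formed by the 32 tested members, 1 mouse stood apart from the other 3 by Dixon's test, and chance gives about 1 in 20 such groups. *Keap1* was at 143 CPM in KIKO mouse 1 and at 122 to 125 CPM in the other KIKO mice, a gap of 0.851 of the range. *Gsta4* was at 49.1 CPM in WT mouse 1 and at 34.2 to 36.5 CPM in the other WT mice, a gap of 0.849 of the range. Neither gene passed the test for genotype.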

How the results depend on the processing

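The same replicate numbers did not pair the mice (correlations of deviations -0.152, -0.133, -0.113 and 0.0285), and with the replicate block 0 members, 0 wider genes and 0 of all genes passed (1427 genes and 8 members at an unadjusted p under 0.05). Against 75 calls over all genes, 382 were made with no filter on low counts, 260 in DESeq2, 40 in limma-voom, 45 in limma-trend with a pseudocount of 1, 34 after the length and GC correction, and 0 to 654 with 1 mouse left out (654 without WT mouse 3, and 0 in the fits that omit WT mouse 2, WT mouse 4 and KIKO mouse 4, where 1344, 1533 and 1328 genes had an unadjusted p under 0.05). Members higher in KIKO mice numbered 1 with no filter, 2 in DESeq2 and 0 to 3 with 1 mouse left out. Wider genes higher in KIKO mice numbered 3 in DESeq2, 0 after the length and GC correction and 0 to 7 with 1 mouse left out; lower, 2 with no filter, 1 in DESeq2 and 0 to 3. The members' median of 0.13 became 0.09 after that correction, and 0.09 to 0.23 with 1 mouse left out. Groups did not overlap in 2 members with the authors' size factors.

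Of 768 comparisons of a named gene with an alternative, 709 kept direction and side of the threshold, 16 lost and 13 gained the call, and 30 changed sign, all of them for estimates that had not passed. *Keap1* was at 0.01 in limma-trend with either pseudocount and 0.02 after the length and GC correction, where *Gclm* was at 0.03, *Txn2* at -0.04 and *Gsta4* at -0.08. With 1 mouse left out the log2 fold changes ran from -0.17 to 0.00 (*Nfe2l2*), -0.08 to 0.07 (*Keap1*), -0.13 to 0.05 (*Gclm*), -0.26 to 0.06 (*Gsr*), -0.20 to 0.06 (*Gpx7*), -0.00 to 0.16 (*Prdx1*), -0.03 to 0.07 (*Txn2*), -0.03 to 0.25 (*Txnrd2*), -0.02 to 0.23 (*Cat*), -0.14 to 0.22 (*Gsta4*) and -0.14 to 0.05 (*Gstm2*). The cause was not tested. Depth limited *Nqo1* and *Slc7a11*.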

Other observations

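Selenoproteins hold selenocysteine, and several members belong to them. A list of 24 mouse selenoprotein genes, chosen after the data were seen and therefore given without a test of the list, had 19 tested genes. Of these, *Selenop* and *Selenom* rose, 0 fell, 15 had estimates above 0 and the median log2 fold change was 0.19. Over all tested genes 0.28% passed as higher, 49% were above 0 and the median was -0.01. Among all genes at or under the median transcript length 59.3% were above 0. Neither call held with length and GC content corrected (edgeR adjusted p = 0.0528 for *Selenop* and 0.0918 for *Selenom*). Besides the members, *Selenok* (WT mean 64.4 ± 5.40 CPM and KIKO mean 80.3 ± 8.21 CPM, SD over 4 mice) differed by 0.32 on the log2 scale (standard error 0.13, edgeR adjusted p = 0.232), and *Msrb1*, a methionine sulfoxide reductase, 0.29 (standard error 0.14, adjusted p = 0.335). *Selenow* stood on the other side, with 271 to 304 CPM in WT and 206 to 257 CPM in KIKO mice and no overlap (-0.29, standard error 0.12, adjusted p = 0.233). Such a separation with KIKO mice below occurred in 4.56% of all tested genes. *Dio1* and *Gpx2* were at 0 in every library.

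The metallothionein genes *Mt1* and *Mt2*, which bind zinc and copper through cysteines, varied more within genotypes than between them. *Mt1* was at 2240, 635, 596 and 833 CPM in WT mice 1 to 4 and 573, 1490, 678 and 898 CPM in KIKO mice 1 to 4, and *Mt2* at 1340, 240, 194 and 421 CPM and 147, 729, 346 and 368 CPM. WT mouse 1 and KIKO mouse 2 were the highest of their genotype in both genes. The reason was not tested.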
